A study of Drosophila melanogaster with 15 samples.

Results

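The contact chemosensory genes described here are those whose symbols place them in the CheA, CheB, Gr and ppk families. They were chosen by symbol alone, with at least 1 count in any library, which gave 94 genes of the 15682 gene symbols in the files: 8 CheA, 12 CheB, 59 Gr and 15 ppk genes. Another 4 symbols of these families, Gr64b, Gr64c, Gr64d and Gr64e, were listed at 0 in all 15 libraries and are not counted among the 94. In the current annotation Gr64b shares exon bases with Gr64c, and Gr64d with Gr64e.

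Contact chemosensation in Drosophila takes place in taste hairs of the mouthparts, legs and wing margins. Gr genes encode gustatory receptors, ppk genes encode subunits of DEG/ENaC sodium channels that serve pheromone, water and salt taste as well as touch and nociception, and CheA and CheB genes encode small secreted lipid-binding proteins found in taste hairs. CheB42a, which is expressed in the male foreleg, and the channel subunits ppk23, ppk25 and ppk29 are known for the courtship response to cuticular pheromones.

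The study examined Dpp, a secreted BMP ligand, made by muscle. Its 15 libraries of stranded total RNA came from w1118-background flies and were labelled as dissected skeletal muscle. There were 5 groups of 3 libraries: control, dpp overexpression, control RNAi, dpp RNAi construct 1 and dpp RNAi construct 2. The labels used here give no driver, sex, age, control construct or number of flies per sample, and do not say whether the libraries of a group came from separate animals; p-values then reflect the spread between libraries, which may be technical. Groups were taken from the titles, since the treatment field is the same, RNAi, in all 15.

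Gene counts per library ranged from 11244899 to 56290808, and 3 counts, the limit that a count of 0 allows, corresponded to 0.0533 to 0.267 counts per 1e+06 gene counts (CPM) depending on the library. These floors cover counting error only. Levels are CPM scaled by TMM factors, and fold changes are log2 values ± SE from 1 edgeR fit over all 15 libraries, with genes called at an adjusted p under 0.05 over 10668 tested genes. dpp itself was at 31.9 to 35.1 CPM in control, 29.3 to 35.0 in control RNAi, 30.4 to 33.4 with construct 1, 29.4 to 33.7 with construct 2 and 51.7 to 77.2 with dpp overexpression, so the libraries labelled dpp RNAi overlapped those of control RNAi. The libraries went against their tissue label: the rhodopsin gene ninaE took 3.0 to 4.01% of gene counts, and 11 eye markers summed to 66200 to 87600 CPM against 4960 to 14900 CPM for 22 muscle markers. A number block in the library codes was shared by both dpp RNAi groups, differed in control RNAi and was shared by dpp overexpression and control. Batch and group cannot be told apart in comparisons that cross such blocks, if they are batches, whereas construct 1 against construct 2, and dpp overexpression against control, lie within a block.

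The families differed in how far they could be followed. All 8 CheA and 12 CheB genes passed the filter on low counts, against 20 of 59 Gr and 11 of 15 ppk genes. The 39 Gr genes below it had 1 to 104 counts summed over the 15 libraries, and the 4 ppk genes 9 to 44. They include Gr68a, a receptor linked to courtship, with 1 count, the bitter receptor gene Gr22e with 46 and the salt-taste subunit gene ppk19 with 13. Per library, 36 to 55 Gr genes had a count, and 32.3 to 41.4 would be expected at the smallest library total, a narrower range.

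Per length, most CheA and CheB genes stood above the receptor genes in the control group. CheA75a stood at 104 CPM per kb of exon, CheA7a at 72.3 and CheA87a at 47.6, CheB42a led the CheB genes at 23.7, and all 20 CheA and CheB genes lay between 1.87 and 104. ppk23, the leading ppk gene, reached 2.7 CPM per kb, above CheA56a at 2.6, CheB74a at 2.0 and CheB53b at 1.87, and Gr64a, the leading Gr gene and a sugar receptor, 1.55. In control RNAi this order held only in part. CheA87a at 7.64 and CheB42a at 3.42 CPM per kb lay above ppk25 at 2.96 and Gr64a at 1.58. CheA75a at 1.31 lay below ppk25 and Gr64a.

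**Figure D1:**
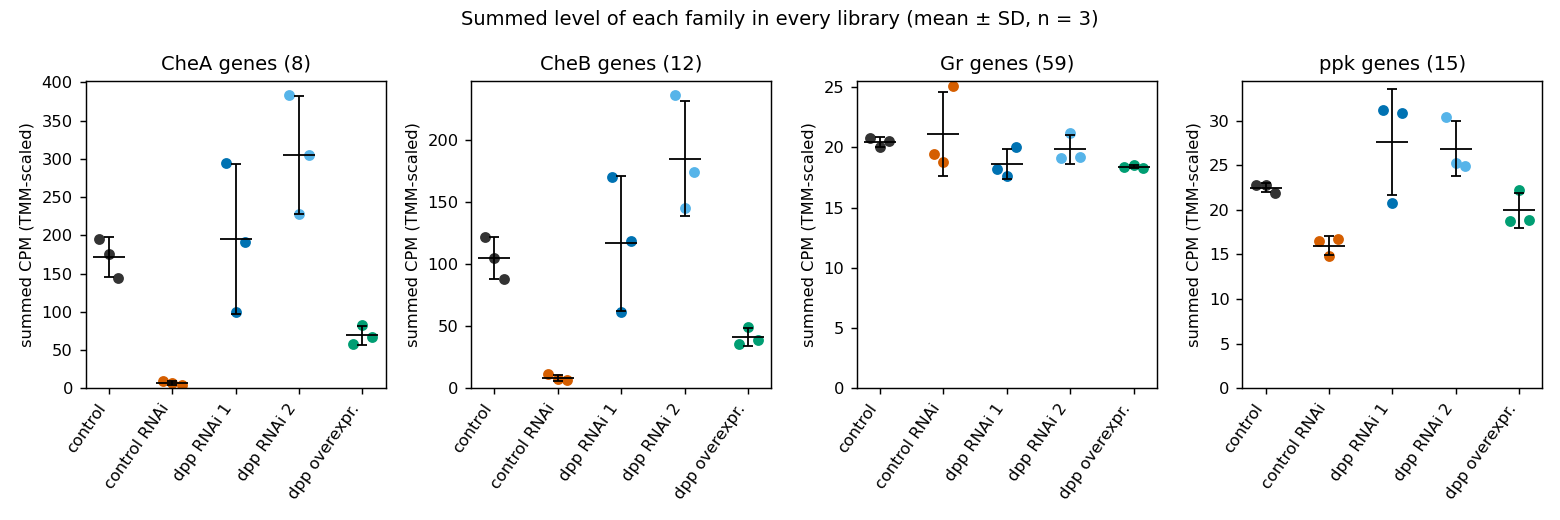
Summed CPM of the 8 CheA, 12 CheB, 59 Gr and 15 ppk genes in each of the 15 libraries (points), with the mean and SD of 3 libraries per group (bars); the axes start at 0 and differ in scale. CheA and CheB sums were lowest in control RNAi and highest with construct 2, while Gr sums stayed between 17.6 and 25.1 CPM.

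The summed level of the 20 CheA and CheB genes separated most of the groups. It was 317, 281 and 232 CPM in the control libraries, 20.9, 14.9 and 11.9 in control RNAi, 465, 161 and 310 with construct 1, 619, 373 and 479 with construct 2, and 94.0, 133 and 106 with dpp overexpression. Control RNAi lay below every other library, dpp overexpression came next, construct 1 spanned the control range, and construct 2 lay above all 3 control libraries. In mixed tissue, fewer cells of a type and less RNA per cell cannot be told apart, here and in all results that follow. The Gr sum gave no such order, with means of 20.4 ± 0.394 CPM (SD, n = 3 here and throughout) in control, 21.1 ± 3.44 in control RNAi, 18.6 ± 1.24 with construct 1, 19.8 ± 1.19 with construct 2 and 18.4 ± 0.0867 with dpp overexpression. All sums are descriptions and were not tested.

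Against control, every CheA and CheB gene was lower in control RNAi. Of all tested genes, 24.3% were called lower and 20.9% higher in this comparison, whereas 20 of 20 CheA and CheB genes fell and 0 rose (edgeR; also 0 rose at an unadjusted p under 0.05 and 0 with DESeq2). The median log2 fold change of the 20 was -4.96, a 31.0-fold difference, against -0.04 for all tested genes, and the groups did not overlap for any of the 20. All 20 stayed called under every alternative tried, including each left-out library.

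CheA75a, the most abundant of the family, shows the size of the difference. Its level was 81.4, 75.6 and 60.5 CPM in control and 1.3, 1.44 and 0 CPM in control RNAi, with a log2 fold change of -6.32 ± 0.63 (edgeR, adjusted p = 2.08e-05). CheA7a followed it, at 60, 53.7 and 42.6 CPM in control against 1.36, 1.67 and 0.031 CPM (-5.68 ± 0.61, adjusted p = 3.74e-05). For both genes the third control RNAi library stood apart from the other two, with 0 counts of CheA75a and 1 of CheA7a where they had 42 and 44, and 44 and 51. CheA86a had 1 count over all 3 control RNAi libraries and 685 in control, a ratio of 441 with a 95% counting interval of 78.8 to 17400.

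Other members kept a measurable level. CheB42a was at 19.8, 15.3 and 14 CPM in control and 2.74, 2.13 and 2.23 in control RNAi (-2.79 ± 0.36, adjusted p = 8.48e-05). CheB53a had the smallest difference of the 20, from 5.34, 4.38 and 4.07 CPM to 2.19, 1.28 and 1.37 (-1.51 ± 0.26, adjusted p = 0.000272). CheA87a went from 34.2, 30.6 and 27.1 CPM to 6.26, 3.67 and 4.81 (-2.64 ± 0.34), but shares exon bases with Lip3, so its reads are uncertain. The range over the family thus ran from a 2.85-fold to a 315-fold fitted difference, the latter for CheA86a, whose fitted value rests on 1 count.

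The make-up of the CheA and CheB RNA changed along with its amount. CheA75a supplied 22.1 to 26.9% of the summed CheA and CheB CPM in the 12 libraries outside control RNAi and 0 to 9.69% in the 3 control RNAi libraries. CheB53a moved the other way, from 1.35 to 2.53% up to 8.59 to 11.5%, as did CheB42a, from 5.43 to 7.0% up to 13.1 to 18.8%. In the 12 other libraries the summed level varied from 94.0 to 619 CPM. Within control RNAi several genes had most of their counts in library 1: CheB93a had 24, 0 and 0 counts, CheB38b 23, 1 and 0, CheB98a 13, 1 and 0, and CheB38a 8, 0 and 0. Library 1 of control RNAi had a count of all 20 genes, library 2 of 15 and library 3 of 12. CheB38b, CheB53b, CheB74a, CheB93a and CheB98a, and below ppk7, ppk10 and Poxn, were named after their values were seen.

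**Figure D2:**
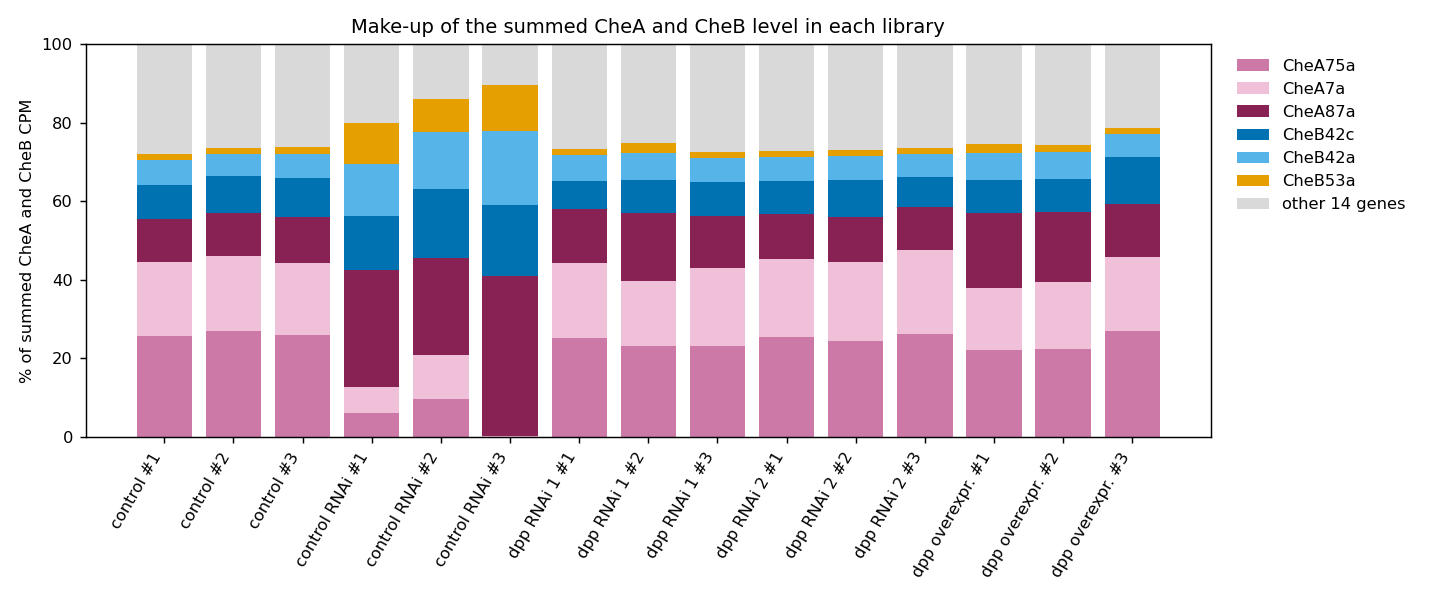
Share of 6 genes and of the other 14 in the summed CheA and CheB CPM of each library (stacked bars, % from 0 to 100; libraries numbered by replicate). CheA75a and CheA7a shrink and CheA87a, CheB42a, CheB42c and CheB53a grow in the 3 control RNAi libraries. CheA87a shares exon bases with Lip3 and CheB42c with mim, so the reads of both are uncertain.

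Both dpp RNAi groups were far above control RNAi for these genes. With construct 1, 20 of 20 CheA and CheB genes rose (median log2 fold change 5.15, range 1.82 to 8.0), against 13.1% of all tested genes called higher and 12.6% called lower. With construct 2, 20 of 20 rose as well (median 5.62, range 2.18 to 8.33), against 21% and 20.3%. No CheA or CheB gene was called lower in either (0 at an unadjusted p under 0.05 in edgeR, and 0 with DESeq2), and all 20 stayed called under every alternative. The comparisons share the control RNAi libraries, which were the low ones.

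CheA29a, a gene of low level that was first described from the male foreleg, was at 0.278, 0.164 and 0.155 CPM in control RNAi, 3.76, 1.6 and 2.7 with construct 1 and 4.85, 3.36 and 4.23 with construct 2. The log2 fold changes were 3.77 ± 0.37 (edgeR, adjusted p = 7.8e-06) and 4.35 ± 0.33 (adjusted p = 2.84e-07). CheB42b rose from 0.37, 0.722 and 0.372 CPM to 17.5, 6.41 and 13.5 with construct 1 and 25.9, 17.1 and 21.1 with construct 2 (4.7 ± 0.43 and 5.45 ± 0.4). CheB38c, at 0.0617, 0.328 and 0.0621 CPM in control RNAi, reached 11.3, 3.44 and 9.36 with construct 1 and 21.4, 13.3 and 16.3 with construct 2. None of these groups overlapped control RNAi.

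The dpp RNAi groups were also set against the control group. With construct 1, 0 of 20 CheA and CheB genes were called in either direction (edgeR; 0 at an unadjusted p under 0.05, 0 with DESeq2), with a median log2 fold change of 0.24, where 12.8% of all tested genes were called higher and 11.7% lower. Without construct 1 library 2 the count became 1 higher. With construct 2, 8 of 20 were called higher and 0 lower (0 lower at an unadjusted p under 0.05 and with DESeq2), with a median of 0.80, where 18.3% of all tested genes were called higher and 17.9% lower. The largest of the 8 were CheB38b at 1.33, CheB93b at 1.25 ± 0.33 (adjusted p = 0.0123) and CheA56a at 1.06 ± 0.27 (adjusted p = 0.00608), and for 16 of 20 genes the groups did not overlap.

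The count of 8 leaned on single libraries. It was 1 without construct 2 library 1, 3 without construct 2 library 3, 3 without control library 2, 2 without control library 3, 14 without construct 1 library 2, 5 without construct 1 library 3 and 5 without dpp overexpression library 1. It was 17 when only the compared libraries entered the fit, 4 without scaling factors and 3 without the filter.

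The constructs were not told apart by any call for these genes. Of the 20 CheA and CheB genes, 0 were called between construct 1 and construct 2 (4 lower at an unadjusted p under 0.05, 1 lower with DESeq2), with a median of -0.56, where 5.67% of all tested genes were called higher and 6.36% lower. All 20 fitted values were nevertheless lower with construct 1 (range -1.05 to -0.21), and for 3 of 20 genes the groups did not overlap. The construct 1 libraries spread widely and together: library 1 was the highest and library 2 the lowest for 20 of 20 genes, with CheA75a at 118, 37.3 and 71.8 CPM. Without construct 1 library 1, 4 of the 20 were called lower than construct 2, among them CheB38c and CheB42b. Control library 1 was likewise the highest of its group for 20 of 20 genes and construct 2 library 1 for 19 of 20.

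With dpp overexpression 16 of 20 CheA and CheB genes fell against control and 0 rose (edgeR; 0 rose at an unadjusted p under 0.05 or with DESeq2), where 16.2% of all tested genes were called lower and 13.4% higher. The median log2 fold change was -1.36, a 2.56-fold difference, against -0.01 for all genes, and 19 of 20 genes had groups that did not overlap. CheB38a fell most, from 4.72, 3.87 and 3.38 CPM to 0.461, 0.808 and 0.422 (-2.78 ± 0.49, adjusted p = 0.000911). CheA29a fell from 2.71, 2.62 and 2.15 CPM to 0.871, 1.17 and 0.728 (-1.4 ± 0.23, adjusted p = 0.00025), and CheA86a from 5.16, 4.79 and 3.65 to 0.99, 1.81 and 0.575 (-1.93 ± 0.37, adjusted p = 0.0016). All 3 dpp overexpression libraries lay below all 3 control libraries for each of these genes.

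The abundant genes of the group changed by a similar amount with more spread. CheA75a stood at 20.7, 29.9 and 28.5 CPM (-1.47 ± 0.41, adjusted p = 0.02) and CheA7a at 14.8, 22.5 and 19.9 (-1.46 ± 0.41, adjusted p = 0.0217), and both calls were lost with DESeq2 and without dpp overexpression library 1, control library 1 or control library 2. The 4 genes not called were CheA87a (-0.7 ± 0.29), CheB38b (-1.0), CheB53b (-0.58) and CheB93a (-1.26 ± 0.44, adjusted p = 0.0525). The count of 16 became 10 without dpp overexpression library 1, 11 without control library 1 and 14 with DESeq2.

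**Figure D3:**
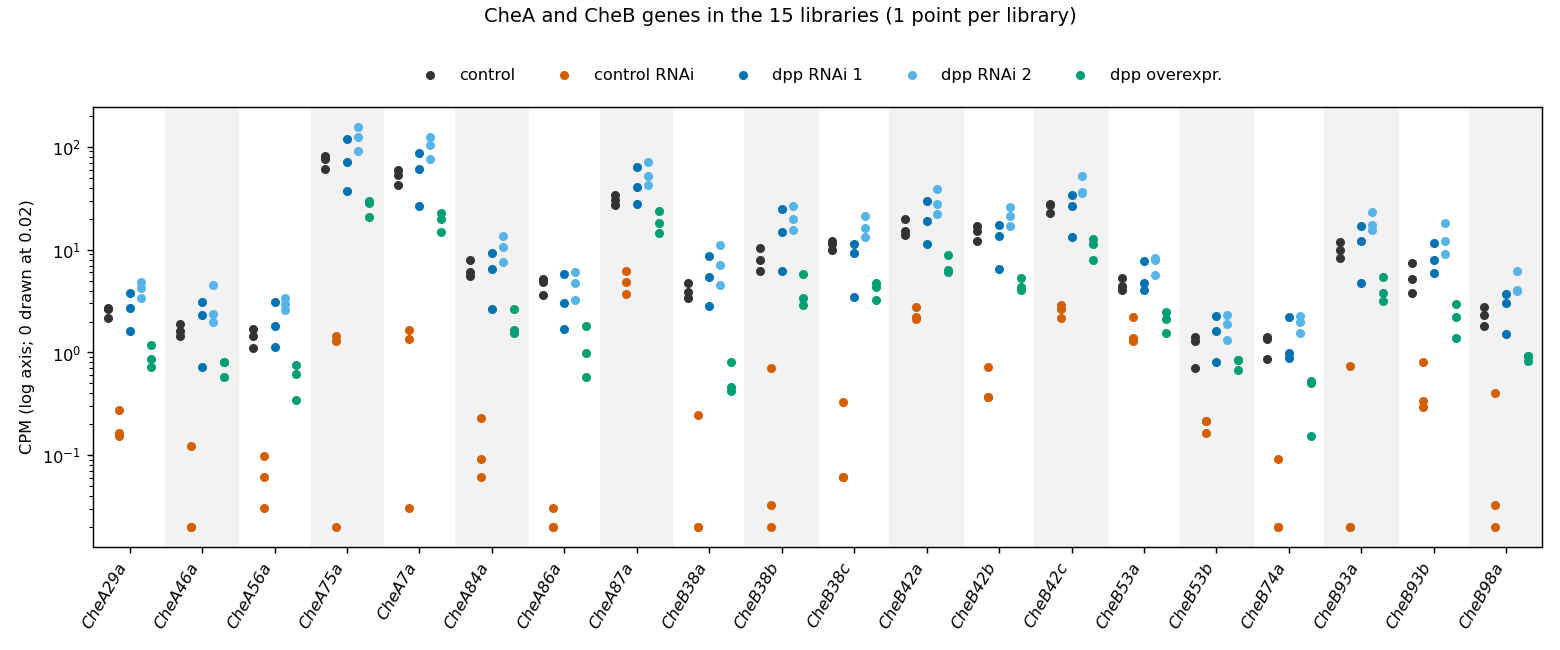
CPM of the 8 CheA and 12 CheB genes in the 15 libraries (1 point per library, log axis, a level of 0 drawn at 0.02). The control RNAi points lie below those of the other groups for every gene but CheB53a, whose control RNAi and dpp overexpression points overlap, and the dpp overexpression points lie below those of control except for CheB53b.

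Among markers of body parts, Antp and Ubx were lower in control RNAi and with dpp overexpression than in control, as the CheA and CheB genes were. The thoracic Hox gene Antp had 9.55 to 10 CPM in control, 2.53 to 3.26 in control RNAi, 6.25 to 16.1 with construct 1, 11.4 to 18.1 with construct 2 and 4.47 to 5.5 with dpp overexpression. Ubx, the Hox gene of the posterior thorax, averaged 2.53, 0.252, 3.09, 4.85 and 0.928 CPM in the same order. Within construct 1 both were lowest in library 2, the low library for the CheA and CheB genes, and highest in library 1.

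The sizes were unequal. From control to control RNAi the ratio of means was 0.302 for Antp, 0.0997 for Ubx and 0.0574 for the CheA and CheB sum; from control to dpp overexpression it was 0.511, 0.366 and 0.401. The list of 4 trunk Hox genes (Antp, Ubx, abd-A, Abd-B), none at 0 throughout, summed to 12 to 12.8 CPM in control, 2.82 to 3.54 in control RNAi, 8.01 to 22.4 with construct 1, 16.2 to 25.8 with construct 2 and 5.36 to 6.69 with dpp overexpression. Of its 3 tested genes, 2 were called lower in control RNAi and 2 with dpp overexpression against control (24.3% and 16.2% of all tested genes). The third, abd-A, the Hox gene of the anterior abdomen, averaged 0 CPM in control, 0.0103 in control RNAi, 0.685 with construct 1, 0.46 with construct 2 and 0.0121 with dpp overexpression, and was called higher with either construct than in control or control RNAi. The part of these genes in the result was not tested.

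Head and neuron markers were higher in control RNAi than in control. In this comparison 20.9% of all tested genes were called higher and 24.3% lower. The 7 head genes summed to 301 to 316 CPM in control and 362 to 387 in control RNAi, where 4 were called higher and 1 lower. The 10 neuron genes matched summed to 4980 to 5260 CPM in control and 7920 to 7990 in control RNAi, where 9 were called higher. Against control, 8 of 10 neuron genes were also called higher with construct 1 and 6 with construct 2. The shares of all tested genes called higher were 12.8% and 18.3%. With dpp overexpression against control, 0 genes were called higher and 1 lower in each of these 2 lists. The shares of all tested genes were 13.4% higher and 16.2% lower. Their part in the result was not tested.

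Muscle markers were lower along with the CheA and CheB genes in control RNAi and not with dpp overexpression. The 22 muscle genes, all detected, summed to 10300 to 11600 CPM in control, 4960 to 5080 in control RNAi, 8700 to 13700 with construct 1, 10700 to 14900 with construct 2 and 10500 to 12600 with dpp overexpression. Against control, 19 of 22 were called lower in control RNAi, whereas 5 were called higher and 2 lower with dpp overexpression, where the CheA and CheB genes fell. The shares of all tested genes were 24.3% lower in control RNAi, and 13.4% higher and 16.2% lower with dpp overexpression. Bristle support cell markers, 5 of 6 matched, summed to 381 to 399 CPM in control, 628 to 703 in control RNAi and 260 to 451 with dpp overexpression. Most of that sum was pros, at 299 CPM in control and 557 in control RNAi, whereas nompA, which encodes a protein of the dendritic cap, fell from 15.3 to 7.94 CPM in control RNAi (-0.95 ± 0.19, adjusted p = 0.00132) and to 9.11 CPM with dpp overexpression (-0.74 ± 0.18, adjusted p = 0.00816). Against control, 2 of these 5 markers were called higher and 1 lower in control RNAi, and 0 higher and 2 lower with dpp overexpression. In control RNAi, 20.9% of all tested genes were called higher. Besides pros, sv was higher in control RNAi (0.45 ± 0.09, adjusted p = 0.000882). The genes pros, nompA and sv were named after their values were seen. Poxn, which specifies taste bristles, averaged 1.56 ± 0.1 CPM in control, 1.7 ± 0.203 in control RNAi and 1.68 ± 0.148 with dpp overexpression.

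**Figure D4:**
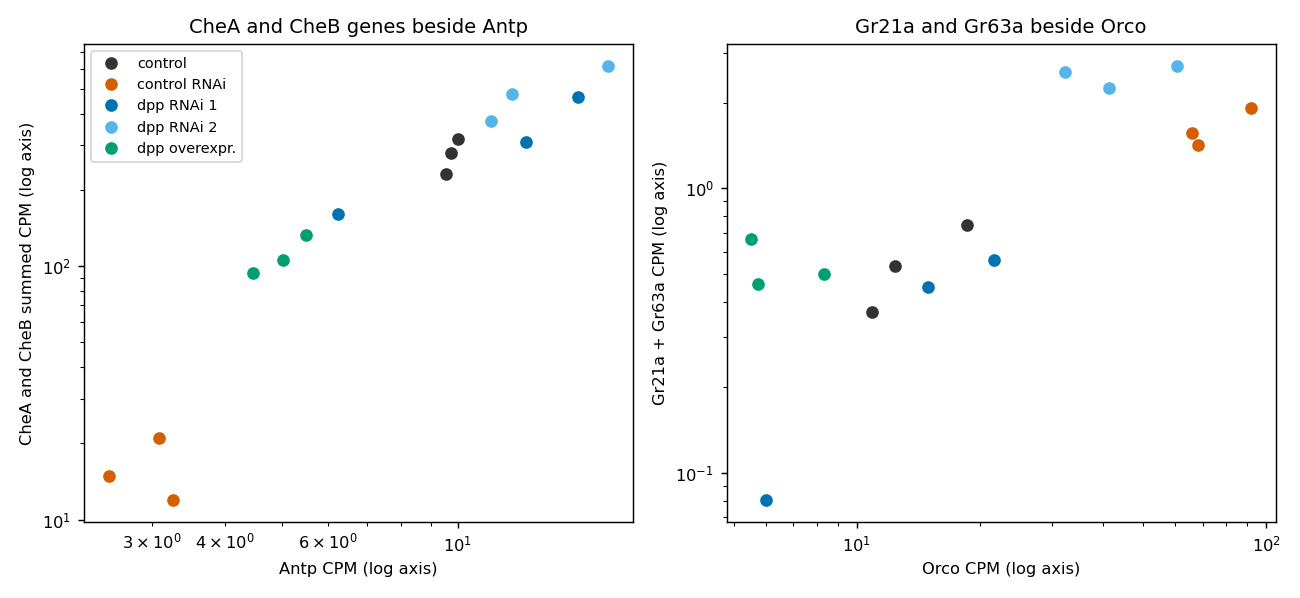
Left, summed CheA and CheB CPM against Antp CPM; right, Gr21a plus Gr63a CPM against Orco CPM, 1 point per library and log axes throughout. Control RNAi libraries sit at the low end of the left panel (Antp 2.53 to 3.26 CPM) and at the high end of Orco in the right panel (65.9 to 91.7 CPM).

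Of the 11 tested ppk genes, the channel subunits, 2 were called lower and 2 higher in control RNAi against control. The shares of all tested genes were 24.3% and 20.9%, so the family as a whole did not stand out there. The 2 lower genes, ppk23 and ppk10, moved with the CheA and CheB genes in that comparison. ppk23, needed in pheromone-sensing cells of the legs, was at 6.17, 6.53 and 5.19 CPM in control, 1.3, 0.656 and 1.3 in control RNAi, 11.8, 4.17 and 8.73 with construct 1, 14.1, 9.44 and 9.97 with construct 2 and 2.95, 4.23 and 3.57 with dpp overexpression. It fell in control RNAi against control (-2.45 ± 0.34, adjusted p = 0.000103) and rose against control RNAi with construct 1 (2.94 ± 0.37) and construct 2 (3.35 ± 0.35). Against control it was called higher with construct 2 (0.89 ± 0.27, adjusted p = 0.0228), a call lost without construct 2 library 1 or control library 1 or 3. With dpp overexpression its groups did not overlap, but the difference of -0.74 ± 0.28 was not called (adjusted p = 0.0652), and it was called when only the compared libraries were fitted.

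ppk10 followed ppk23 in control RNAi, at 0.278, 0.459 and 0.248 CPM against 1.72, 1.39 and 1.1 in control (-2.11 ± 0.33, adjusted p = 0.00012). It rose against control RNAi with construct 1 (2.57 ± 0.37) and construct 2 (2.43 ± 0.36), and its difference with dpp overexpression, -0.27 ± 0.25, was not called. In construct 1 both ppk23 and ppk10 were highest in library 1 and lowest in library 2, as were the CheA and CheB genes. Without these 2 genes the ppk sum lay between 12.8 and 19.8 CPM in all 15 libraries. Because the genes left out were the ppk genes called lower in control RNAi, this range does not show that the others were stable.

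ppk25, another subunit of the pheromone-sensing cells, lies beside CheB42a on chromosome arm 2R and overlaps the locus of CheB42c. Its level was 3.29, 3.3 and 2.96 CPM in control, 4.07, 4.23 and 3.79 in control RNAi, 4.32, 3.36 and 5.13 with construct 1, 2.88, 2.9 and 2.71 with construct 2 and 3.35, 3.42 and 3.18 with dpp overexpression. While CheB42a, its neighbour, fell by 2.79 on the log2 scale in control RNAi, ppk25 was called higher by 0.33 ± 0.11 (adjusted p = 0.0269), a call lost without scaling factors, which shifted the median of all genes in this comparison to -0.13, and without any of 5 single libraries (control RNAi library 1 or 2, or any control library). It was higher with construct 1 than with construct 2 (0.59 ± 0.14, adjusted p = 0.0141), a call lost without construct 1 library 3.

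ppk13 did not follow the CheA and CheB genes in control RNAi. It was at 0.181, 0.0917 and 0.105 CPM in control and 0.119, 0.135 and 0.0383 with dpp overexpression, but at 0.679, 0.459 and 0.527 in control RNAi, 1.4, 0.561 and 1.08 with construct 1 and 1.72, 0.811 and 1.15 with construct 2. It rose against control in all 3 RNAi groups, by 2.09 ± 0.43 in control RNAi (adjusted p = 0.000991), 2.99 ± 0.44 with construct 1 (adjusted p = 0.000157) and 3.21 ± 0.4 with construct 2 (adjusted p = 2.38e-05), with no overlap between groups. These comparisons share the control libraries.

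The remaining ppk genes gave few calls. ppk, the subunit of nociceptive dendritic arborisation neurons, was at 5.04 to 5.39 CPM in control and 3.74 to 5.09 in control RNAi, and was called only with construct 1 against control RNAi (0.52 ± 0.15, adjusted p = 0.0157), a call lost without construct 1 library 3 or control RNAi library 2. ppk28, the water-taste subunit, averaged 4.44 ± 0.432 CPM in control and 3.51 ± 0.461 in control RNAi and was called in none of the 7 comparisons. ppk7 was called higher with dpp overexpression (0.92), the 1 ppk gene called there, and no ppk gene was called lower (edgeR; 2 at an unadjusted p under 0.05, 0 with DESeq2). In that comparison 13.4% of all tested genes were called higher and 16.2% lower. ppk11, a salt-taste subunit gene, was not called in any comparison and shares exon bases with ppk16.

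The files list 14 further ppk genes under older symbols, which the choice by symbol left out. CG13568, now ppk29, the partner of ppk23 and ppk25, was at 5.25, 5.21 and 4.9 CPM in control and 2.29, 2.35 and 2.11 with dpp overexpression (-1.18 ± 0.13, edgeR, adjusted p = 4.2e-06). In control RNAi it was at 4.01, 3.08 and 2.54 CPM (-0.67 ± 0.13, adjusted p = 0.000604), a smaller difference than that of ppk23, and it was also lower than control with construct 1 (-0.87 ± 0.15, adjusted p = 0.000632) and construct 2 (-0.5 ± 0.14, adjusted p = 0.00966). CG14239, now ppk15, went with the CheA and CheB genes: 1.14, 0.99 and 0.708 CPM in control, 0.278, 0.394 and 0.31 in control RNAi, and log2 fold changes against control RNAi of 1.89 ± 0.36 with construct 1 and 1.81 ± 0.34 with construct 2. CG8546, now ppk26, the partner of ppk in nociceptive neurons, was called in none of the 7 comparisons. CG10858, now ppk27, went the other way in control RNAi, higher than control by 2.18 ± 0.37 (adjusted p = 0.000231). It was also higher than control with construct 1 (1.72 ± 0.47) and construct 2 (1.5 ± 0.45), as ppk13 was. CG33289, now ppk5, was lower with dpp overexpression than in control (-2.09 ± 0.63). With construct 2 against control RNAi, CG31105, now ppk22, was higher (0.65 ± 0.21) and CG32792, now ppk8, lower (-0.67 ± 0.19). All but CG13568 and CG8546 were named after their values were seen.

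**Figure D5:**
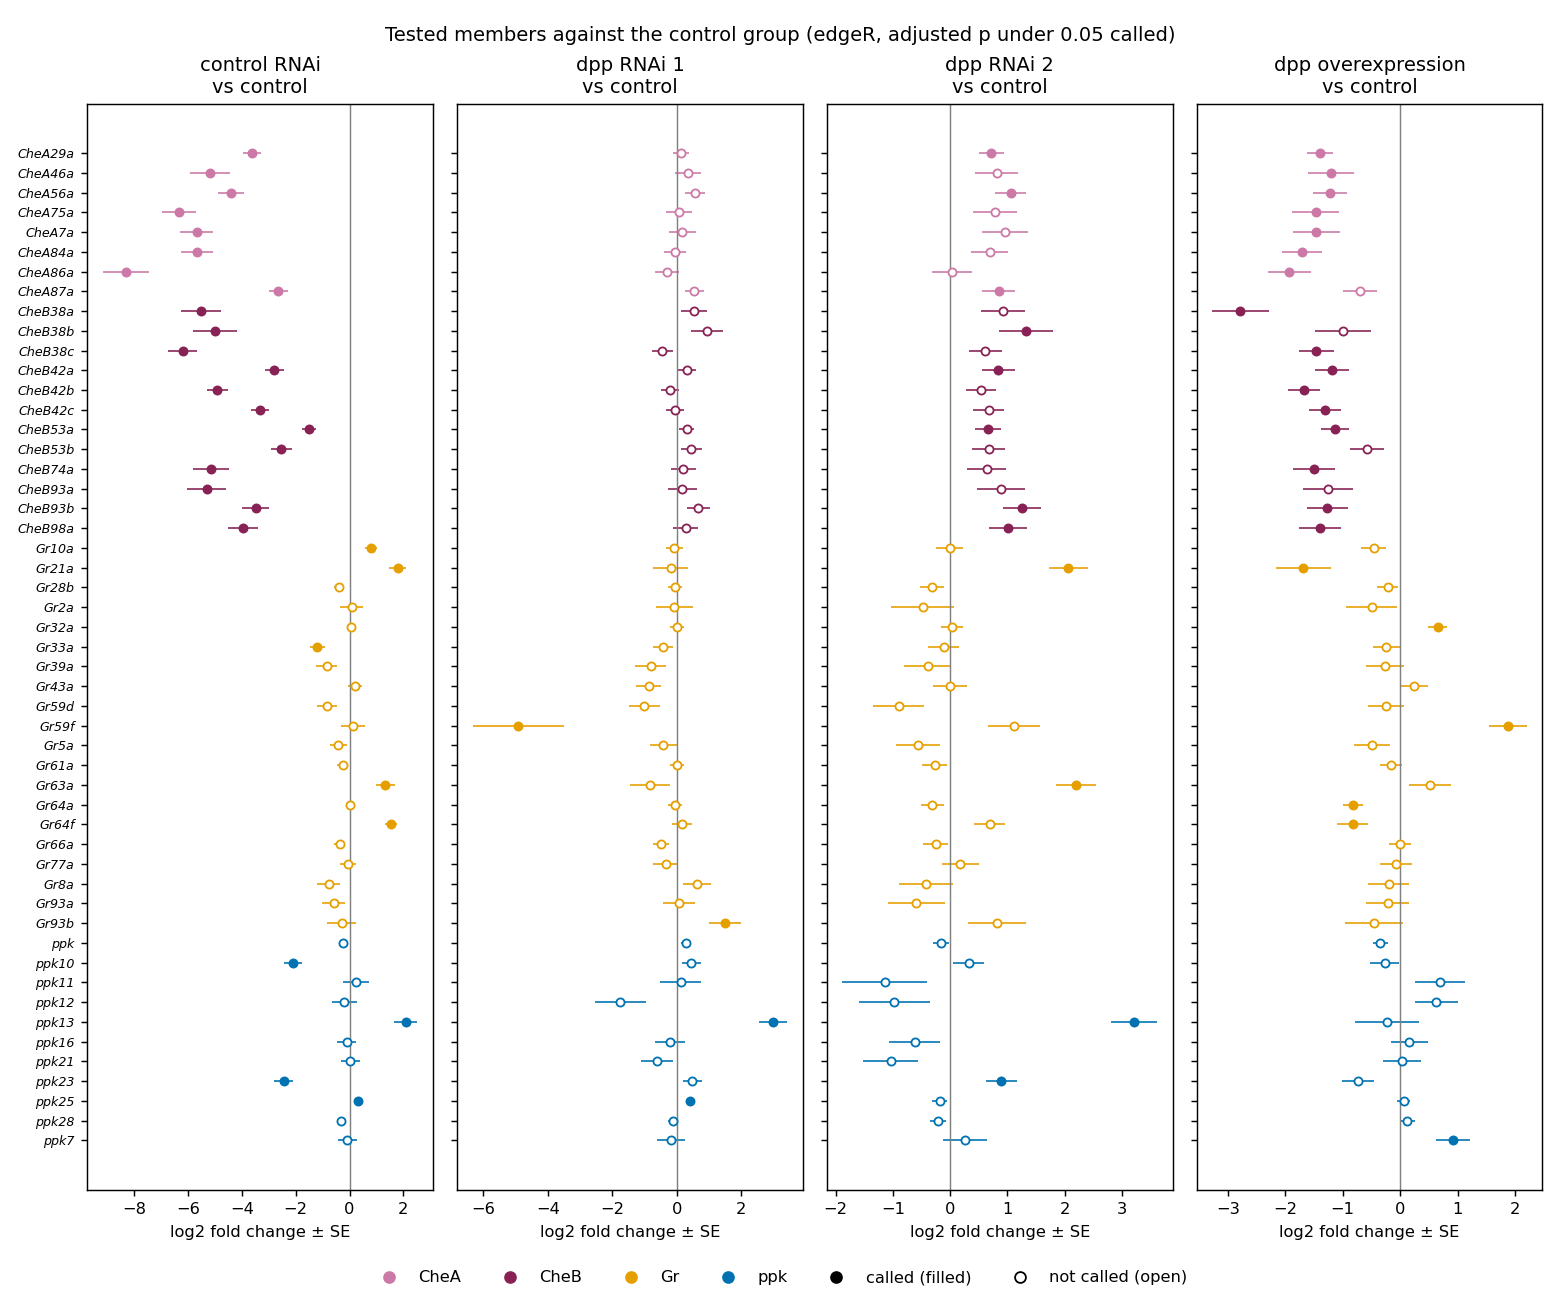
Log2 fold change ± SE against control of the 51 tested members in control RNAi, construct 1, construct 2 and dpp overexpression (panels differ in scale; filled points were called at an adjusted p under 0.05 in edgeR). CheA and CheB genes form a block to the left in control RNAi and dpp overexpression, while Gr and ppk genes scatter around 0 apart from a few, and the value of Gr59f with construct 1 rests on 0 counts.

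The Gr genes, the receptors themselves, gave calls in both directions. Against control, 4 of 20 tested rose and 1 fell in control RNAi, 1 rose and 1 fell with construct 1, 2 rose and 0 fell with construct 2 (edgeR; 0 fell at an unadjusted p under 0.05 and 0 with DESeq2), and 2 rose and 3 fell with dpp overexpression. Their median log2 fold changes were -0.16, -0.13, -0.18 and -0.23. Of all tested genes, 20.9% were called higher and 24.3% lower in control RNAi, and 12.8% and 11.7% with construct 1. The shares were 18.3% and 17.9% with construct 2, and 13.4% and 16.2% with dpp overexpression. Against control RNAi, 2 Gr genes rose and 5 fell with construct 1, where 13.1% of all tested genes were called higher and 12.6% lower. With construct 2, 2 Gr genes rose and 2 fell, where the shares were 21% and 20.3%. With construct 1, 3 Gr genes were called lower than with construct 2, as were 6.36% of all tested genes.

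Gr21a and Gr63a, which together form the carbon dioxide receptor of the antenna, rose in control RNAi and with construct 2. Gr21a was at 0.308, 0.183 and 0.157 CPM in control, 0.802, 0.525 and 0.993 in control RNAi, 0.168, 0.0801 and 0.36 with construct 1, 0.981, 0.869 and 0.965 with construct 2 and 0.0512, 0.0769 and 0.0767 with dpp overexpression. Gr63a was at 0.434, 0.348 and 0.21 CPM in control, 0.617, 1.05 and 0.931 in control RNAi, 0.392, 0 and 0.09 with construct 1, 1.72, 1.39 and 1.61 with construct 2 and 0.615, 0.423 and 0.383 with dpp overexpression. Control RNAi and construct 2 lay above control for both genes without overlap.

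Against control, Gr21a changed by 1.79 ± 0.32 in control RNAi (adjusted p = 0.000308) and 2.06 ± 0.34 with construct 2 (adjusted p = 0.000249), and Gr63a by 1.33 ± 0.35 (adjusted p = 0.00612) and 2.19 ± 0.35 (adjusted p = 0.000191). Both were lower with construct 1 than with construct 2, by -2.26 ± 0.47 for Gr21a (adjusted p = 0.0059) and -3.01 ± 0.52 for Gr63a (adjusted p = 0.00158). The construct 1 levels rest on few counts, so these sizes are uncertain. With dpp overexpression the pair parted: Gr21a fell (-1.69 ± 0.48, adjusted p = 0.0142, lost without dpp overexpression library 1 or control library 1), while Gr63a stood at 0.52 ± 0.36 and was not called. The difference between the pair was not tested.

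Olfactory markers were also higher in control RNAi and with construct 2 than in control. The olfactory co-receptor gene Orco had 10.9 to 18.6 CPM in control, 65.9 to 91.7 in control RNAi, 6.01 to 21.6 with construct 1, 32.3 to 60.5 with construct 2 and 5.53 to 8.31 with dpp overexpression. The antennal list, 11 of 14 genes matched and none of them at 0 throughout, summed to 1180 to 1360 CPM in control, 2960 to 3180 in control RNAi, 1060 to 1500 with construct 1, 1840 to 2880 with construct 2 and 564 to 717 with dpp overexpression. Against control, 11 of 11 were called higher in control RNAi and with construct 2, and 8 of 11 lower with dpp overexpression. The same calls covered 20.9%, 18.3% and 16.2% of all tested genes. The part of the olfactory markers in the result was not tested.

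Sugar receptors gave mixed calls. Gr64f, the broad sugar co-receptor, rose from 0.724, 0.935 and 0.839 CPM in control to 2.28, 1.67 and 3.26 in control RNAi (1.53 ± 0.23, adjusted p = 6.78e-05) and was lower than control RNAi with construct 1 (-1.36 ± 0.28, adjusted p = 0.00238). It shares exon bases with CG11593. Gr64a, of the same gene cluster, did not follow. It was at 2.04, 2.29 and 2.6 CPM in control and 2.31, 2.36 and 2.39 in control RNAi, and fell with dpp overexpression to 1.28, 1.6 and 0.882 (-0.82 ± 0.18, adjusted p = 0.00287). Gr64f fell there by 0.83 on the log2 scale as well (adjusted p = 0.0319), a call lost with DESeq2 and without dpp overexpression library 1 or 2 or control library 2 or 3. Gr5a, for trehalose, Gr61a, for glucose, and Gr43a, for fructose, were not called in any of the 7 comparisons. Gr5a and ppk28 share exon bases with antisense RNAs and Gr43a with Dhx15, and the strand setting of the counting is not given in the sources used here.

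Gr66a, a core bitter receptor, was at 1.34, 1.72 and 1.44 CPM in control and 1.42, 0.853 and 1.21 in control RNAi and was called in no comparison. Gr33a, which also takes part in courtship inhibition, fell in control RNAi from 1.16, 1.21 and 1.1 CPM to 0.339, 0.361 and 0.807 (-1.2 ± 0.28, adjusted p = 0.00259) and was called higher with construct 2 than in control RNAi (1.09 ± 0.32, adjusted p = 0.0136), a call lost without construct 2 library 3 or control RNAi library 1 or 2. Gr32a, the receptor gene linked to male pheromone detection, was called once, higher with dpp overexpression: 2.41, 2.13 and 2.91 CPM against 1.63, 1.49 and 1.55 in control (0.65 ± 0.16, adjusted p = 0.00521). Gr32a shares exon bases with CG6230. The summed level of Gr5a, Gr61a, Gr66a and Gr32a lay between 3.38 and 5.68 CPM in all 15 libraries. Gr5a, Gr61a and Gr66a were called in no comparison, so this range does not describe the other Gr genes.

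Gr59f was listed at 0 in all 3 construct 1 libraries. It was at 0.0905, 0.128 and 0.131 CPM in control, 0.123, 0.131 and 0.124 in control RNAi, 0.368, 0.232 and 0.184 with construct 2 and 0.393, 0.385 and 0.575 with dpp overexpression. Against 3 counts summed over the construct 1 group it was 1.59-fold higher in control, 1.74-fold higher in control RNAi and 3.49-fold higher with construct 2. These folds take the 17, 12 and 14 counts of the other groups as exact, so they are not full lower limits. Gr59f rose with dpp overexpression (1.87 ± 0.33, adjusted p = 0.000696), the largest rise among the members there.

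The other Gr calls were few. Gr10a rose in control RNAi against control (0.8 ± 0.21, adjusted p = 0.00525) and was lower than control RNAi with construct 1 (-0.87 ± 0.26) and construct 2 (-0.81 ± 0.24), but it shares exon bases with Or10a, so its reads are uncertain. Both of the latter calls were lost without control RNAi library 3, and also without construct 1 library 1 or 2 and construct 2 library 2 or 3. Gr93b was higher with construct 1 than in control RNAi (1.78 ± 0.55) and control (1.5 ± 0.5), calls that were lost without any of the libraries of the reference group or without construct 1 library 1 or 2. Gr28b and Gr39a were not called in any comparison.

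Other genes of contact chemosensation were examined from a list of 31, of which 23 were tested. Against control, 4 rose and 11 fell in control RNAi, and 1 rose and 8 fell with dpp overexpression. Of all tested genes, 20.9% were called higher and 24.3% lower in control RNAi, and 13.4% and 16.2% with dpp overexpression. Against control RNAi, 8 of the 23 rose and 3 fell with construct 1, and 9 rose and 4 fell with construct 2. The shares of all tested genes were 13.1% higher and 12.6% lower with construct 1, and 21% and 20.3% with construct 2. Obp19b, an odorant-binding protein gene of taste hairs, was at 72.6, 75.1 and 64.5 CPM in control, 18.4, 10.9 and 18.2 in control RNAi, 113, 59.3 and 82.7 with construct 1, 147, 95.5 and 104 with construct 2 and 32.9, 45.7 and 30.9 with dpp overexpression. It was lower in control RNAi (-2.16 ± 0.28, adjusted p = 0.00012) and with dpp overexpression (-0.95 ± 0.26, adjusted p = 0.0188) than in control, the directions of the CheA and CheB genes.

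Obp57a, Obp57c and Obp57e, named after their values were seen, were also called lower than control in control RNAi and with dpp overexpression, with Obp57e at -1.31 ± 0.29 in control RNAi (adjusted p = 0.00196) and -1.19 ± 0.27 with dpp overexpression (adjusted p = 0.00315). Obp56h fell in control RNAi against control (-1.51 ± 0.08, adjusted p = 3.77e-09) but rose with dpp overexpression (0.29 ± 0.08, adjusted p = 0.0104). The 4 listed genes that rose in control RNAi were Snmp1 (1.38 ± 0.24), norpA (0.73 ± 0.07), Ir76b (0.71 ± 0.13) and dpr (0.22 ± 0.07). Snmp1, Ir76b and dpr were named after their values were seen. In the list, trpl, TrpA1, Obp57a and pain had the smallest adjusted p with dpp overexpression against control. The Npc2 genes, which share the ML lipid-binding fold, had 6 of 8 tested: 2 rose and 1 fell in control RNAi, and 3 rose and 1 fell with dpp overexpression, against control. The genes of cuticular pheromone synthesis had 8 of 10 tested, of which 4 rose and 1 fell in control RNAi and 6 rose and 1 fell with dpp overexpression. For comparison, 20.9% of all tested genes were called higher and 24.3% lower in control RNAi, and 13.4% and 16.2% with dpp overexpression.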

How the data were processed

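The authors deposited 1 table of raw counts per library, with whole-number counts per gene symbol. Reads were handled with STAR, BWA and HTSeq on build dm3, per the submitters' processing notes; versions, annotation and strand setting are not given in the sources used here, so reads of overlapping genes could have been split. HTSeq summary lines (14.48 to 20.93% of entries) were left out of totals. Counts were fitted in R 4.3.3 with edgeR 4.0.16 (filterByExpr with minimum count 10, TMM, robust quasi-likelihood, 15 libraries, 10 residual degrees of freedom) and Benjamini-Hochberg adjustment over 10668 genes; 5014 were left out. The procedure was tested on simulated data. DESeq2 1.42.0, other scaling, no filter, smaller fits, a replicate block and leaving out libraries served as alternatives. The Ensembl BDGP6 annotation (dm6) gave only symbols, arms, neighbours and exon lengths; all 94 members matched. Python 3.11.15, pandas 2.3.3, numpy 2.4.6 and matplotlib 3.10.9 were used.

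Members and lists were chosen with earlier results of these data known. Named genes were the 3 most abundant of each family, up to 6 called members per comparison with the smallest adjusted p, a list with known roles, and up to 4 members per gene list. Other names are marked.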

Additional observations from a re-analysis of the deposited data

Results flagged for a closer look

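For 4 members the effects of the 2 dpp RNAi constructs, measured against the same control RNAi libraries, differed by a direct test of construct 1 against construct 2 in edgeR. The log2 difference was -2.26 for Gr21a, which was lower with construct 1 in 3 of 3 libraries. It was -3.01 for Gr63a, also lower in 3 of 3 libraries. With construct 1 the summed level of Gr21a and Gr63a was 0.56, 0.0801 and 0.45 CPM. In those libraries 3 counts corresponded to 0.166, 0.235 and 0.267 CPM. Both fitted sizes thus rest on few counts and are uncertain. For Gr59f the fitted value was -6.03, on 0 counts with construct 1 and 14 counts with construct 2. Its size depends on the prior count, so the fold against 3 counts given above applies instead. For ppk25 the difference was 0.59, with all 3 construct 1 libraries above all 3 of construct 2. The 2 groups share a number block in their library codes. Orco (-1.61 ± 0.4, adjusted p = 0.0267) and lush (-1.12 ± 0.31, adjusted p = 0.0383), markers of the olfactory organs, differed in the same direction as Gr21a and Gr63a, and their part in the result was not tested.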

How the results depend on the processing

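No called value changed sign under any alternative run. Of the named-member values under the alternatives, 4953 kept their side of the threshold, 114 lost a call and 49 gained a call. With only the compared libraries fitted, the members called higher with construct 1 than construct 2 went from 1 to 0, those higher and lower with construct 1 than control went to 1 and 0, and those higher with construct 2 than control from 12 to 22. The last count was 7 without a filter, and DESeq2 called 0 members lower with construct 1 than control. The causes were not tested. Over all left-out libraries, members called lower ranged from 11 to 22 with dpp overexpression, from 3 to 6 with construct 1 and from 1 to 3 with construct 2 against control RNAi, and from 3 to 7 for construct 1 against construct 2, where those higher ranged from 0 to 1. Against control, those higher ranged from 1 to 5 and those lower from 0 to 1 with construct 1, and those higher from 4 to 18 with construct 2. Over all genes, same-numbered libraries did not deviate together in every pair (correlations of -0.164 to 0.246, 7 of 30 pairs over 0.1), so numbers were not taken as pairs; with the replicate block 19 members were called lower with dpp overexpression, 25 and 24 higher with the constructs against control RNAi, and 23 lower in control RNAi. Of the 20 CheA and CheB genes, library 1 was the highest of its group for 20 in control, 20 with construct 1, 19 with construct 2, 13 in control RNAi and 2 with dpp overexpression. Depth limits the 39 Gr and 4 ppk genes below the filter, which were not tested.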
